A study of Mus musculus with 16 samples.

Results

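The CD209 family of mouse lectins was followed across 4 populations of sorted bone marrow progenitors. The family's 7 genes, *Cd209a* to *Cd209g*, were chosen from earlier results of these data, because *Cd209a* and *Cd209e* fell in tumor-bearing mice, and they were found by the gene name printed for each probe. The array names 22611 genes, of which these are 7. They are measured by 9 of the 39429 noncontrol probes on the array: 2 for *Cd209a*, 2 for *Cd209c* and 1 for each other gene. RNA was measured on 16 single-colour Agilent arrays, 4 for each of macrophage-dendritic cell progenitors (MDPs) and common dendritic cell progenitors (CDPs) from tumor-free, age-matched C57/Bl6 females or from females that carried orthotopic PyMT B6 mammary tumors of 1.5 cm. PyMT B6 is a line of tumor cells from the MMTV-PyMT mammary cancer model on the C57BL/6 background, so the tumor-bearing groups stand for 1 transplanted line. Each array holds cells pooled from a pair of mice, and the sorting gates are not given in the sources used here. The gate markers *Kit*, *Flt3*, *Csf1r* and *Cx3cr1* were above background on all 16 arrays, and *Kit*, which CDPs carry at a lower level than MDPs, was lower in CDPs by 2.59 (tumor-free) and 3.81 (tumor-bearing) on the log2 scale.

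CD209, known as DC-SIGN, is a C-type lectin of the cell surface that binds mannose- and fucose-bearing glycans in a calcium-dependent way and takes up microbes and glycoproteins for antigen presentation. Humans have a small family around this gene, whereas in mice tandem copies form a larger cluster. *Cd209a* is the mouse copy used as a marker of monocyte-derived and cDC2-type dendritic cells, *Cd209b* encodes SIGN-R1 of splenic marginal zone macrophages, *Cd209d* encodes SIGN-R3, and the functions of the other copies are less well described. MDPs are the earlier progenitors and retain monocyte and macrophage potential, and CDPs lie further along the dendritic cell branch.

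All 8 mapped member probes lie on chromosome 8 in the array maker's mm9 positions, within 393.9 kb from 3743481 to 4137377. The *Cd209a* probe 1 lies at 3743481 to 3743540, *Cd209e* at 3848016 to 3848075, *Cd209d* at 3871827 to 3871886, *Cd209b* at 3921355 to 3921414, *Cd209c* at 3944888 to 3944947 and 3940223 to 3940282, and *Cd209f* at 4102798 to 4102857, all on the minus strand. *Cd209g* lies on the plus strand at 4137318 to 4137377, and *Cd209a* probe 2 has no position in the files.

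The promoters of 4 members are shown because their genes took different courses over the same 16 arrays: *Cd209a* and *Cd209e* were chosen as the genes that fell, *Cd209d* was above background on every array, and *Cd209b* on none. Each is 300 bases of RefSeq sequence (GRCm38.p6, a different build from the probe positions), 250 before and 50 after the annotated start, written 5′ to 3′ on the gene's own strand. Capitals mark every word of 10 or more bases that also stands in the *Cd209a* promoter or, for *Cd209a*, in that of *Cd209e*. The windows are chr8:3748935-3749234 for *Cd209a*, chr8:3854237-3854536 for *Cd209e*, chr8:3878450-3878749 for *Cd209d* and chr8:3926792-3927091 for *Cd209b*, all on the minus strand.
Cd209a: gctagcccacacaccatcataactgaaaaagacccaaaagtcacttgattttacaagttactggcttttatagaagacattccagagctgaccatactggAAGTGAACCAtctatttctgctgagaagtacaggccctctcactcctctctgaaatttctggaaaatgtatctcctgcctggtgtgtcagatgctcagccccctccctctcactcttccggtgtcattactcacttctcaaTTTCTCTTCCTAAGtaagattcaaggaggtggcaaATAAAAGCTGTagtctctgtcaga
Cd209e: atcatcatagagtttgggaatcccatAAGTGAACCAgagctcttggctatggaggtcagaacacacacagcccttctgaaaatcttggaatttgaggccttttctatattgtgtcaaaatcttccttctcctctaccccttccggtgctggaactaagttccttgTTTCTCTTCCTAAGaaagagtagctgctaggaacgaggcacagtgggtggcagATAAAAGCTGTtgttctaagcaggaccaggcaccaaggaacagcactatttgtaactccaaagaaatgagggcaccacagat
Cd209d: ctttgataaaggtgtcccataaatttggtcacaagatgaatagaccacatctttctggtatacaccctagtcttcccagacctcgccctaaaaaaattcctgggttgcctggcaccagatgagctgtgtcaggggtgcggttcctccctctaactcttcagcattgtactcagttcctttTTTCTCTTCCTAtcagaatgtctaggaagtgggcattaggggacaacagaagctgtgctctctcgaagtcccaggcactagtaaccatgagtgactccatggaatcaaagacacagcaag
Cd209b: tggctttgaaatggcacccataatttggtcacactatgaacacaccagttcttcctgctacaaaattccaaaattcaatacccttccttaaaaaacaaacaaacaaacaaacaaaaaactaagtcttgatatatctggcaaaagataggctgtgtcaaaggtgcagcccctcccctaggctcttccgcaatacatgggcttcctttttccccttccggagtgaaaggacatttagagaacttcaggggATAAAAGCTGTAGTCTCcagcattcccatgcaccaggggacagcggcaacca

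The longest word common to the *Cd209a* and *Cd209e* promoters was TTTCTCTTCCTAAG, 14 bases long. Of 32851 promoter windows of this length in the RefSeq table, 2 held it on the gene's strand (0.00609%), those of *Cd209a* and *Cd209e*. *Cd209d* shared 12 of its bases in a row. A second word of 11 bases, ATAAAAGCTGT, stood in the promoters of *Cd209a*, *Cd209e* and *Cd209b* and in 5 of all windows (0.0152%), and the 10-base word AAGTGAACCA in *Cd209a* and *Cd209e* and in 9 of all windows (0.0274%). The letters AGGAAG, a form of the GGAA core that ETS-family factors such as PU.1 bind, were searched on both strands and overlap the first word as its reverse complement. They stood in 4 of the 7 member promoters (*Cd209a*, *Cd209b*, *Cd209d* and *Cd209e*), as in 35.4% of all windows. *Cd209f* and *Cd209g*, which face opposite ways in the cluster, shared an unbroken run of 180 bases in their promoter windows. These matches are descriptions of letters in a window.

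Levels are given as normalized log2 signal, which is log2 of the scanner's background-corrected intensity minus the 75th percentile of the same array. A value of 0 is thus the level of a bright probe, and the lowest value that counted as above background lay between −5.47 and −5.10 on the 16 arrays. Most member spots below that carry a substitute signal set by the scanner software, so that their values have no order. Of the 9 member probes, 6 were above background on at least 3 of 4 arrays of at least 1 group and could be tested, as could 27433 probes in all. *Cd209b*, *Cd209g* and probe 2 of *Cd209c* were above background on 0 of 16 arrays.

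**Figure D1:**
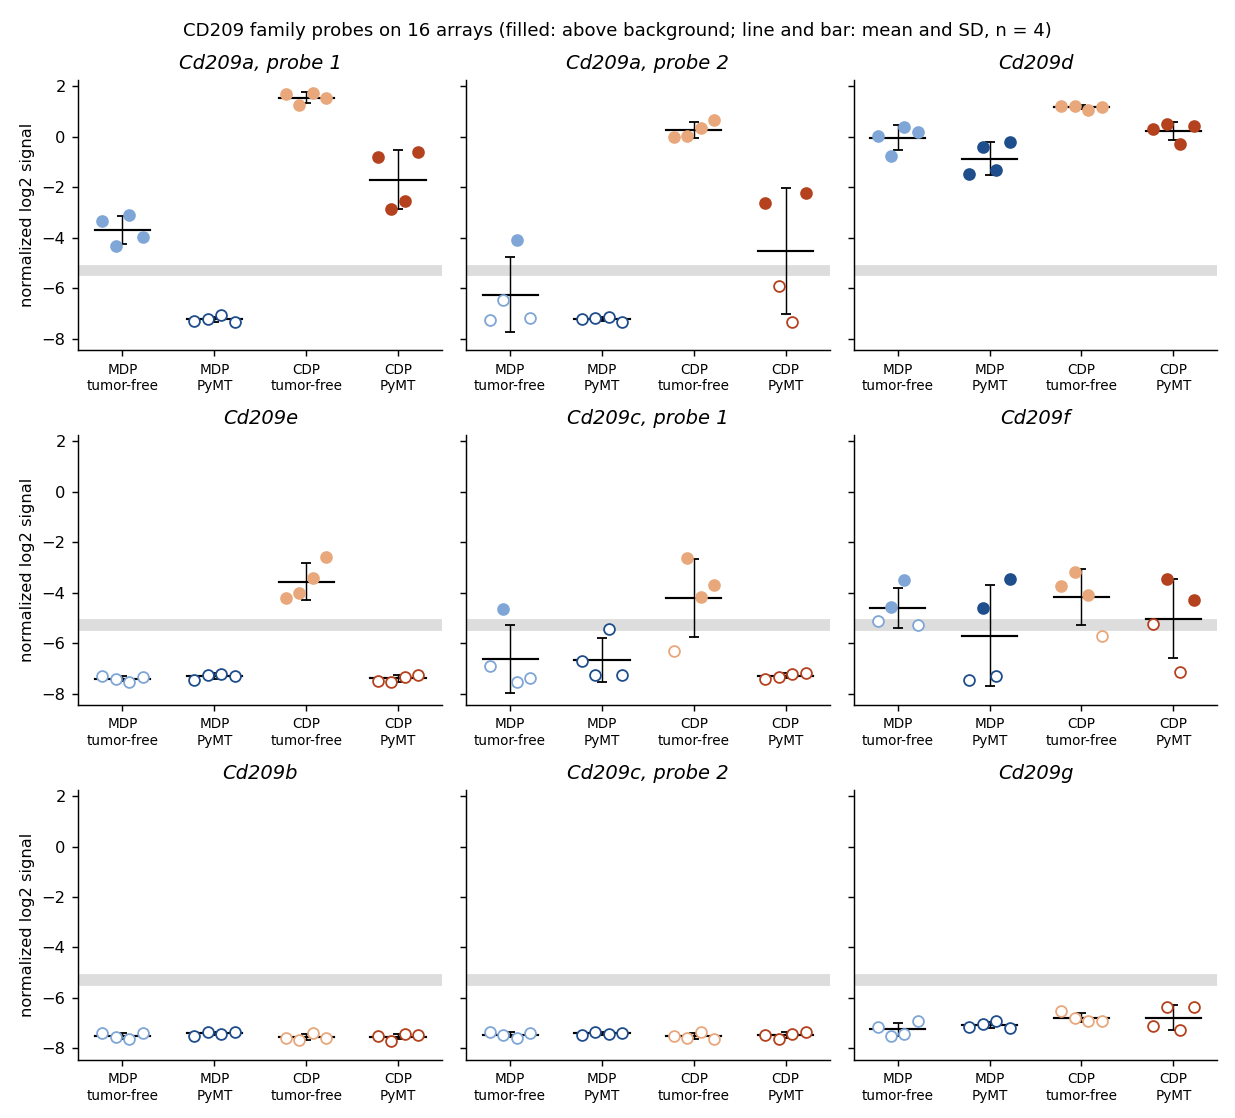
Normalized log2 signal (vertical axis) of the 9 CD209 family probes on each of 16 arrays, by group. Filled points are above background and open points are not, the black line and bar are the mean and SD of 4 arrays, and the grey band is the range of the lowest above-background value on the arrays (−5.47 to −5.10). *Cd209a* and *Cd209d* were highest in tumor-free CDPs, *Cd209e* was above background in that group alone, and the 3 panels of the bottom row hold open points only.

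*Cd209a* was the member with the widest range. In tumor-free CDPs its probe 1 read 1.71, 1.25, 1.72 and 1.53 (replicates 2 to 5), with a mean of 1.55 ± 0.22 (SD, n = 4). In tumor-free MDPs it read −3.36, −4.32, −3.09 and −3.99, with a mean of −3.69 ± 0.56 (SD, n = 4), and was above background on all 4 arrays. The groups did not overlap, and the scanner intensities behind them ran from 212 to 547 units in MDPs and from 10970 to 13480 units in CDPs. The marker was therefore already measurable at the MDP stage in tumor-free mice and stood 37.8-fold higher in CDPs.

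In tumor-bearing mice the same probe read −0.80, −2.85, −2.55 and −0.60 in CDPs, with a mean of −1.70 ± 1.17 (SD, n = 4). It was above background on 0 of 4 arrays of tumor-bearing MDPs, at substitute intensities of 24 to 27 units. CDPs of tumor-bearing mice thus lay below all tumor-free CDPs and above all tumor-free MDPs, with replicates 2 and 5 above replicates 3 and 4 and a spread wider than in the tumor-free groups.

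The second *Cd209a* probe, which lies nearer to the start of the transcript (base 289, against base 1338 for probe 1), was also highest in tumor-free CDPs. It read −0.02, 0.03, 0.33 and 0.68 in tumor-free CDPs, with a mean of 0.25 ± 0.32 (SD, n = 4). In tumor-bearing CDPs it was above background on replicates 2 and 5 only, at −2.65 and −2.22, the replicates on which probe 1 was also higher. It was above background on 1 of 4 arrays of tumor-free MDPs, at −4.10, and on 0 of 4 of tumor-bearing MDPs. Probe 2 thus gives no order among the other 3 groups, and the dim end of *Cd209a* was resolved by probe 1 alone.

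*Cd209e* was detected in a single population. It read −4.21, −4.04, −3.42 and −2.60 in tumor-free CDPs, with a mean of −3.57 ± 0.73 (SD, n = 4) at intensities of 223 to 760 units. On the other 12 arrays it was not above background, at substitute values between −7.54 and −7.23. The gap is a bound on the scanner's background-corrected scale and not a measured fold. On that scale tumor-free CDPs were at least 3.12-fold above tumor-free MDPs and at least 3.26-fold above tumor-bearing CDPs.

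*Cd209d*, which encodes a fucose-binding receptor of myeloid cells, was the member above background on all 16 arrays. In tumor-free mice it read 1.23, 1.22, 1.04 and 1.19 in CDPs and 0.05, −0.75, 0.39 and 0.17 in MDPs. In tumor-bearing mice it read 0.32, 0.49, −0.29 and 0.44 in CDPs and −1.48, −0.42, −1.34 and −0.21 in MDPs. By mean the order was tumor-free CDPs (1.17 ± 0.09), tumor-bearing CDPs (0.24 ± 0.36), tumor-free MDPs (−0.04 ± 0.50) and tumor-bearing MDPs (−0.86 ± 0.64; SD, n = 4 each). The first group lay above every array of the others, while each later pair of neighbours in this order overlapped.

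The remaining members were dim. Probe 1 of *Cd209c* was above background on 3 of 4 arrays of tumor-free CDPs, at −2.64, −4.19 and −3.70, and on 1 of 4 of tumor-free MDPs, at −4.65. It was above background on 0 of 4 arrays of either tumor-bearing group. The second *Cd209c* probe, at base 1170 of the same transcript against base 1489, was above background nowhere, so the pair disagrees about this gene. *Cd209f* was above background on 9 of 16 arrays, 2 or 3 in each group, with values from −5.72 to −3.17 in tumor-free CDPs and no group apart from the others. Because the members are tandem copies, cross-hybridization between them could move a probe's signal, and it was not tested.

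The step from MDP to CDP shares its arrays with the tumor contrast by which the family was chosen. A gene picked because it fell with tumors tends to be high in tumor-free CDPs, so the steps of *Cd209a* and *Cd209e* are given as a description, with no test. Each probe's difference was taken from a limma fit of all 16 arrays, with p-values adjusted by the Benjamini-Hochberg method over 27433 probes, and a probe was called at an adjusted p under 0.05 with a fold above 1.5. In tumor-free mice 4 of the 6 tested member probes were called higher in CDPs, where 2.94% of all tested probes were, and nothing is read from this count. *Cd209e*, probe 2 of *Cd209a*, probe 1 of *Cd209c* and *Cd209f* entered the fit only through tumor-free CDPs, where their means were highest.

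*Cd209a* probe 1 was 5.24 higher in tumor-free CDPs than in tumor-free MDPs on the log2 scale (95% interval 4.29 to 6.19, SE 0.44), a difference between groups that were both above background on all arrays. Within the 4 slides that each held 1 array of both groups, it was higher in CDPs by 5.84, 5.08, 5.69 and 4.34. For probe 2 the difference has no measured size, since 3 of the 4 MDP arrays were below background.

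*Cd209d* was 1.21 higher in tumor-free CDPs (2.31-fold, 95% interval 0.55 to 1.86, SE 0.31, limma adjusted p = 0.0293). The exact two-sided permutation test over the 8 arrays gave p = 0.0286, the smallest it can give with 70 relabelings. Within the 4 slides it was higher in CDPs by 1.94, 0.99, 1.06 and 0.84. The call was near its threshold: it was kept in 1 of 8 fits that each left out 1 array, the fit without MDP replicate 4, with differences of 0.97 to 1.35 and adjusted p of 0.0319 to 0.0828 by limma. With replicate number as a block it had an adjusted p of 0.0522.

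*Cd209e* has the bound given above, at least 3.12-fold, since no MDP array was above background. Its fitted difference of 3.84 depends on the substitute signal, and with a different background correction (normexp with an offset of 50 units) it was 1.01 and was not called. That is a smaller difference than the bound, which belongs to the scanner's correction alone. *Cd209c* probe 1 had a fitted difference of 2.41 and was not called. Its size depends on the substitute signal, which 3 of the 4 tumor-free MDP arrays carried. *Cd209f* differed by 0.44 (95% interval −1.59 to 2.46), an interval that leaves room for a change in either direction. Both probes passed the filter only through tumor-free CDPs, so no p-value is given for them.

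In tumor-bearing mice 2 of the 6 tested member probes were called higher in CDPs, where 3.56% of all tested probes were. *Cd209a* probe 1 stood at least 11.3-fold above tumor-bearing MDPs, where it was not above background on any array, and all 4 CDP arrays lay above all 4 MDP arrays. The size of the step in tumor-bearing mice is thus known only as a bound. With normexp correction the difference was 2.66, smaller than that bound, and was called. Probe 2 had a fitted difference of 2.69, with 2 of 4 CDP arrays and 0 of 4 MDP arrays above background, so its size is not measured. The groups overlapped for probe 2, and it was not called. Without replicate 4 of tumor-bearing CDPs it was called.

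*Cd209d* was 1.10 higher in tumor-bearing CDPs than in tumor-bearing MDPs (SE 0.31, limma adjusted p = 0.0417), with 1 CDP array inside the MDP range (exact permutation p = 0.0571). It was called in 3 of 8 fits without 1 array, with adjusted p of 0.0172 to 0.132, and was lost without MDP replicates 2 and 4 or CDP replicates 2, 3 and 5. With slide as a block it was 0.67 and was not called, and within the 2 slides that held both groups it was 0.14 and 0.65. Slides were not balanced in this step: slide 1 held 2 arrays of tumor-bearing MDPs and 0 of tumor-bearing CDPs, and slide 4 the reverse. *Cd209e* had no measured step in tumor-bearing mice, since both groups were below background on all arrays. *Cd209c* probe 1 was below background in both groups too, and *Cd209f* differed by 0.66 (95% interval −1.36 to 2.69).

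**Figure D2:**
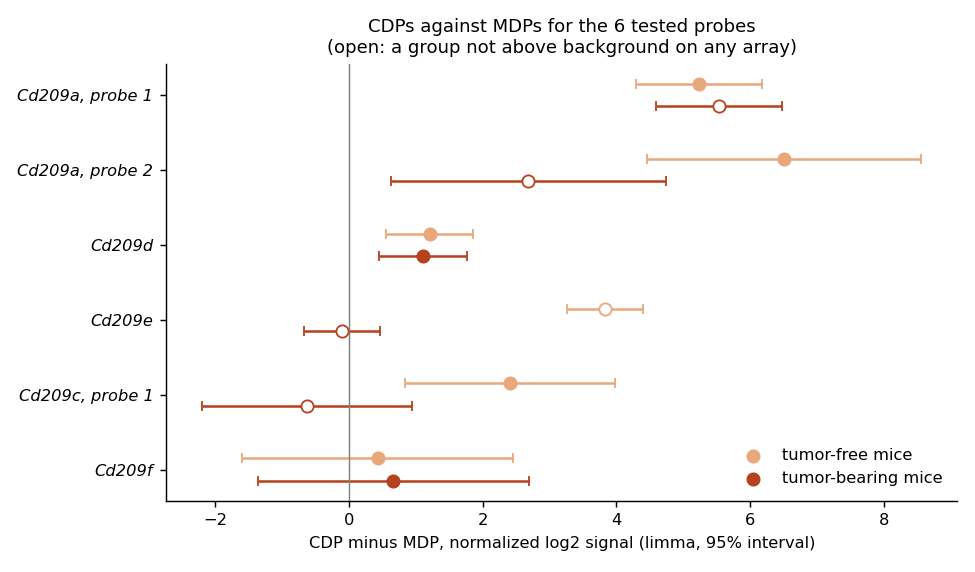
CDP minus MDP difference in normalized log2 signal (horizontal axis) of the 6 tested CD209 family probes, in tumor-free and tumor-bearing mice, with 95% intervals from the limma fit. Open points are comparisons in which at least 1 group was above background on no array, so that their size depends on the substitute signal. Probe 1 of *Cd209a* lay above 5 in both, *Cd209d* above 1 in both, and the open point of *Cd209e* in tumor-free mice at 3.84.

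The tumor contrast is the one from which the members were chosen, and its values are given as a description. In CDPs, 4 of the 6 tested probes were called lower in tumor-bearing mice, where 0.999% of all tested probes were, and in MDPs 1 of 6, where 0.0328% were. Nothing is read from these counts. In bulk samples fewer cells of a type and less RNA per cell cannot be told apart.

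Among the members the *Cd209a* decrease in CDPs was 9.52-fold by probe 1 (difference −3.25, SE 0.44), a measured value with both groups above background. For *Cd209e* the bound was at least 3.26-fold. For *Cd209c* probe 1 the same calculation gave 2.08-fold, with 3 of 4 tumor-free CDP arrays above background, so it is not a strict bound. Their fitted differences, −3.84 and −3.08, depend on the substitute signal, as does −4.78 for *Cd209a* probe 2, which was above background on 2 of 4 arrays of tumor-bearing CDPs. With normexp correction the difference of *Cd209e* was −1.63 and was not called. *Cd209f* differed by −0.86 (SE 0.95). *Cd209d* had no overlap between the CDP groups, at a difference of −0.93 (SE 0.31, 1.90-fold), and did not pass the call rule. With slide as a block it was −1.14 (SE 0.21) and was called. Slides were not balanced between these groups: slide 4 held 2 arrays of tumor-bearing CDPs and slide 1 held 0. Within the 3 slides that held both CDP groups, *Cd209a* probe 1 was lower by −4.28, −2.30 and −3.08 and *Cd209d* by −1.32, −0.78 and −0.82.

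In MDPs the decrease of *Cd209a* probe 1 was at least 2.85-fold, from 4 of 4 arrays above background to 0 of 4. The call of this probe was lost without replicate 4 of tumor-free MDPs (fitted difference −3.35) and without replicate 4 of tumor-bearing MDPs. With normexp correction the difference was −1.57 and was not called. Slides were not balanced here either: slide 1 held 2 arrays of tumor-bearing MDPs and slide 4 held 0. Those on slide 1, replicates 2 and 4, had 60.6% and 58.8% of probes above background. Replicates 3 and 5 of that group had 64.2% and 67.2%. *Cd209d* differed by −0.83 (SE 0.31) between the MDP groups, which overlapped. The other 5 genes had no MDP group with 3 arrays above background, so a change there could not be measured. The MDP and CDP contrasts do not share arrays, but each shares its arrays with the stage comparisons above.

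Markers of other cells differed between the same groups, and their part in the CD209 values was not tested. A summed level adds the linear normalized signals of a list's measured markers, in multiples of the array's 75th percentile. The 7 neutrophil markers summed to 25.1 to 35.3 in tumor-free CDPs and 44.8 to 67.3 in tumor-bearing CDPs and the 4 monocyte markers to 15.8 to 19.0 and 24.3 to 31.8. The 4 genes of the progenitor gate summed to 33.2 to 37.6 and 23.9 to 28.0. The 6 cDC1 markers summed to 1.57 to 2.44 and 0.23 to 0.69, a difference carried by *Clec9a* (mean log2 level 0.93 and −2.52, not called). *Itgae* had means of −3.37 and −3.03, *Cd8a* and *Cadm1* were above background on at most 2 arrays of a group, and *Xcr1* and *Tlr3* on none. The 5 erythroid markers, at 2.56 to 10.7 and 1.70 to 3.97, overlapped. The 8 cDC2 markers, which include *Cd209a*, summed to 55.8 to 78.9 and 66.4 to 92.5, ranges that overlap. Their largest term was *Itgam* (mean log2 level 5.46 and 5.88). Between the CDP groups *Lcn2* (2.70) and *Elane* (1.11) of the neutrophil list were called higher in tumor-bearing mice. *S100a8*, *S100a9* and *Mpo* were higher and *Ltf* (−0.45) and *Camp* (−0.65) lower, none of them called. Of the monocyte list *Ms4a3* (2.19) was called higher, and *Ccr2*, *F13a1* and *Cd14* were not called. The plasmacytoid dendritic cell, macrophage, B cell and T and NK cell lists overlapped between the CDP groups. *Kit* of the gate (−1.34), *Bst2* of the plasmacytoid list (−0.69), and *Klrd1* and *Cd96* of the T and NK list were called lower. No gene of these lists was called higher. *Klrd1* and *Cd96* were each above background on 1 of 4 tumor-bearing CDP arrays, so their size is not measured. In the 2 MDP groups the summed level was 46.4 to 78.1 and 39.5 to 85.2 for the cDC2 list, and 0.55 to 0.76 and 0.11 to 0.28 for the cDC1 list. The monocyte list summed there to 19.0 to 23.8 and 23.7 to 37.0, and the erythroid list to 2.08 to 5.07 and 1.73 to 2.21, each with the groups meeting at their edges. Of the neutrophil list only *Lcn2* (2.16) was called between the MDP groups, higher in tumor-bearing mice. For the 5 markers of marginal zone and metallophilic macrophages, a list that holds *Cd209b*, the 4 groups overlapped, from 0.39 to 4.02.

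The other C-type lectin receptors of myeloid cells gave the setting in which the family moved. Of 30 such genes 25 were tested. In the tumor-free step 6 were called higher in CDPs and 3 lower, and the median difference was 0.42, against 0.02 over 16329 tested genes, of which 536 were higher and 615 lower. *Clec4a3* of the DCIR and DCAR gene cluster was at least 7.11-fold higher in CDPs and not above background in MDPs. *Clec4a1* (3.11), *Clec4b1* (2.09), *Clec1a* (2.13), *Clec4g* (2.25) and *Clec10a*, a galactose-type lectin of dendritic cells (1.06), also rose. For *Clec4g* only 1 of 4 tumor-free MDP arrays was above background, so its size is not measured. *Clec4e* (Mincle, a receptor for mycobacterial glycolipid) was at least 6.11-fold lower in CDPs, *Clec4d* fell by 2.66 and *Mgl2* by 0.62.

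In the tumor-bearing step 4 of 25 were called higher and 2 lower, with a median of 0.69 against 0.16 over all genes, of which 640 were higher and 702 lower. *Clec4a3* was at least 6.39-fold higher, *Clec4a1* differed by 3.52, *Clec4b1* by 2.11 and *Cd302* by 1.43, while *Clec4d* fell by 1.59 and *Mgl2* by 0.66. *Clec4a1*, *Clec4a3* and *Clec4b1* were thus called higher in CDPs in both settings, while *Clec4a2* and *Clec4a4* of the list were too dim to be tested. Between CDPs of tumor-bearing and tumor-free mice their fitted differences were 0.16 for *Clec4a1*, −0.14 for *Clec4a3* and 0.03 for *Clec4b1*, beside −3.25 for *Cd209a*. The differences between genes were not tested.

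In tumor-bearing against tumor-free CDPs 4 lectins were called higher and 2 lower, with a median of 0.08 against 0.07 over all genes, of which 158 were higher and 169 lower. *Clec4e* was at least 15.5-fold higher, *Clec5a* (2.89), *Clec4d* (1.87) and *Cd302* (1.59) rose, and *Clec4g* and *Clec1a* fell by 2.04 and 2.26. Only 1 of 4 tumor-free CDP arrays was above background for *Clec5a*, so its size is not measured. Between the MDP groups limma called 0 lectins of the list (5 had an unadjusted p under 0.05), and over all genes it called 8 higher and 6 lower. There the cDC1 receptor *Clec9a* had the widest fitted difference, −3.77, beside −3.45 in CDPs, neither of which passed the rule. In tumor-bearing MDPs *Clec9a* was above background on 2 of 4 arrays, so the size there is not measured.

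Of 14 genes for proteins that carry the signal of human DC-SIGN into the cell, 12 were tested. In the tumor-free step 1 was called higher and 1 lower, in the tumor-bearing step 1 higher, between the CDP groups 1 higher and between the MDP groups 0 (3 had an unadjusted p under 0.05), beside the counts over all genes given above. *Lsp1*, which anchors the signaling complex to the receptor, rose from MDP to CDP in tumor-free mice by 2.05 (SE 0.17, limma adjusted p = 9.96e-06) and in tumor-bearing mice by 2.09. *Ikbke*, a kinase of the branch that fucose-bearing ligands set off, fell by 0.76 in the tumor-free step and was 0.82 higher in tumor-bearing than in tumor-free CDPs. The list's median differences were 0.22 and −0.21 in the 2 steps, −0.20 in CDPs with tumors and 0.08 in MDPs with tumors, against 0.02, 0.16, 0.07 and −0.09 over all genes. Of the protein ligands, *Icam2* fell from MDP to CDP by 0.84 and 0.63, and *Icam1* and *Itgam* were not called in any comparison.

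Of 18 factors and receptors linked to *Cd209a*-expressing dendritic cells, all tested, 3 were called higher in the tumor-free step and 0 lower, beside 536 and 615 of all 16329 tested genes. These were *Irf4*, a factor required in the cDC2 lineage (3.10, SE 0.43), *Klf4* (1.98) and the GM-CSF receptor chain *Csf2ra* (0.79). *Irf4* was above background on 2 of 4 arrays of tumor-free MDPs, so the size of its step is not measured. In the tumor-bearing step *Irf4* was at least 4.42-fold higher, *Klf4* differed by 1.21, *Csf2ra* by 1.06 and *Zbtb46*, a factor of conventional dendritic cells, by 1.76, while *Runx3* fell by 0.59. The list's medians were 0.44 and 0.41 in the 2 steps, against 0.02 and 0.16 over all genes. Between tumor-bearing and tumor-free mice limma called 0 genes of the list in either population (4 in CDPs and 3 in MDPs had an unadjusted p under 0.05). The values were −0.67 in CDPs for *Irf4*, and 0.22 in CDPs and 0.16 in MDPs for *Spi1*, which encodes PU.1. Between the MDP groups *Irf4* had a fitted difference of −1.61. Its size is not measured, since *Irf4* was above background on 0 of 4 arrays of tumor-bearing MDPs.

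The genes around the cluster were examined for the same differences. Within 500 kb of the outermost member probes 30 other genes had 41 probes, of which 38 were tested. Of these, 3 were called higher in the tumor-free step, where 2.94% of all tested probes were, 1 in the tumor-bearing step (3.56%), and 3 were called lower in tumor-bearing CDPs (0.999%). *Clec4g*, a lectin of sinusoidal endothelium, lies 27.3 kb from the *Cd209a* probe. It was 2.25 higher in CDPs in the tumor-free step (SE 0.41) and was called. It passed the filter only through the CDP groups, so no p-value is given for this step. Only 1 of 4 tumor-free MDP arrays was above background for it, so the size is not measured. In the tumor-bearing step *Clec4g* differed by 0.67 and was not called. *Cd209a* probe 1 was called there, and the difference between these genes was not tested. Between tumor-bearing and tumor-free CDPs *Clec4g* differed by −2.04 (limma adjusted p = 0.0259). *Mcemp1*, 74.8 kb away, rose from MDP to CDP by 1.52 and 1.80 and differed by 0.56 between the CDP groups, which was not called. *Fcor*, 71.6 kb away, rose by 1.25 in the tumor-free step.

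One probe each of *Trappc5* (63.3 kb) and of the lysosomal channel gene *Mcoln1* (230.0 kb) was lower in tumor-bearing CDPs, by −1.22 and −0.69. The other probe of each gene differed by −0.20 and −0.44 and was not called. Between the MDP groups limma called 0 neighbours (3 probes had an unadjusted p under 0.05). Over the 38 probes the median difference was 0.28 and 0.27 in the 2 steps, −0.15 between the CDP groups and −0.24 between the MDP groups.

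**Figure D3:**
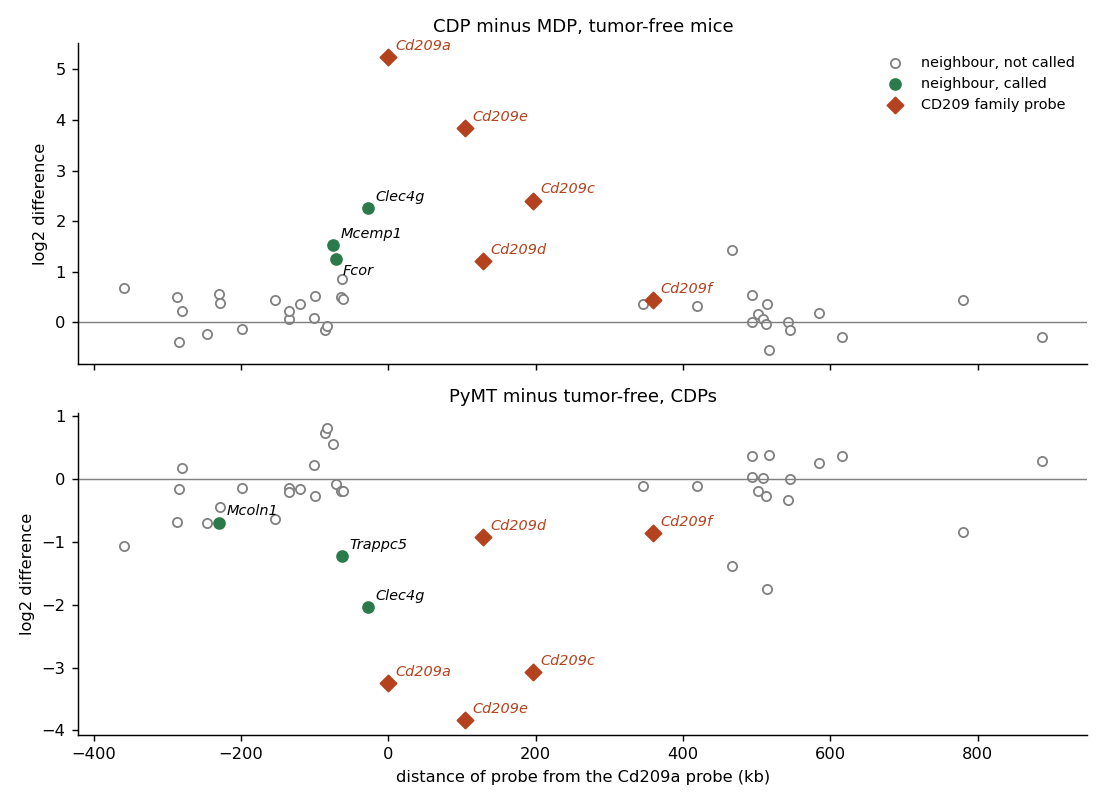
Log2 difference (vertical axis) of the tested neighbouring probes (circles) and mapped CD209 family probes (diamonds) against their distance in kb from the *Cd209a* probe 1, for CDP minus MDP in tumor-free mice (top) and tumor-bearing minus tumor-free CDPs (bottom). Green circles are called neighbours. *Cd209a*, *Cd209e* and *Cd209c* lay above 2 in the top panel and below −3 in the bottom panel. The fitted sizes depend on the substitute signal for *Cd209e* and *Cd209c*. *Clec4g* was the neighbour with the same signs beyond 2, in the top panel against MDP arrays mostly below background.

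The genes whose level moved most like *Cd209a* probe 1 over the 16 arrays, among 16324 genes, were *Ctnna1* (Pearson r = 0.967), *Camk1d* (0.964), *Txnip* (0.960), *Spaca9* (0.956) and *Fyn* (0.952). All 5 were above background on every array and had the order of *Cd209a*: highest in tumor-free CDPs, then tumor-bearing CDPs, then tumor-free MDPs, then tumor-bearing MDPs. Genes picked by a high r share this order largely through the picking, and the tumor-bearing MDP values of *Cd209a* are substitutes. The range of the 5 genes was narrower. *Ctnna1*, which encodes alpha-catenin, had means of 2.63, 2.12, 1.69 and 1.36 in that order, and *Camk1d*, a calmodulin-dependent kinase, 0.19, −0.93, −1.65 and −2.75.

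The genes most like *Cd209e* were *Pid1* (r = 0.968), *Mmel1* (0.950), *Fmnl2* (0.940), *Upk1b* (0.932) and *E130215H24Rik* (0.917). Of these *Pid1*, *Mmel1*, *Upk1b* and *E130215H24Rik* were, like *Cd209e*, above background in tumor-free CDPs alone. They passed the filter only through that group, and their values elsewhere lie below background. A high r between them and *Cd209e* was thus partly fixed in advance. *Fmnl2*, a formin that shapes actin filaments, was above background on all arrays, with means of −1.34 in tumor-free MDPs, −1.70 in tumor-bearing MDPs, 0.49 in tumor-free CDPs and −1.37 in tumor-bearing CDPs. The points of each correlation are 16 arrays in 4 groups and share the group differences, so r describes likeness and was not tested.

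**Figure D4:**
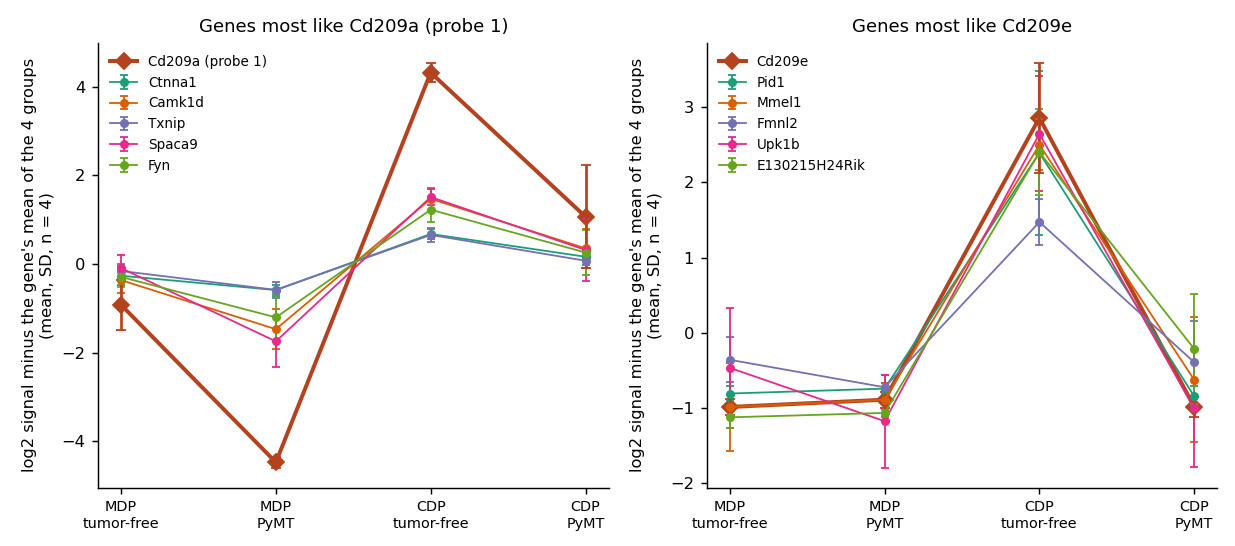
Group means (SD bars, n = 4) of normalized log2 signal, each gene centred on its mean of the 4 groups (vertical axis), for *Cd209a* probe 1 and *Cd209e* (diamonds) and the 5 genes most correlated with each. The genes on the left share the order of *Cd209a* over a narrower range, and those on the right peak in tumor-free CDPs, as *Cd209e* does. Both sets were picked by their correlation, so these shapes were partly fixed in advance.

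Among the members, *Cd209d* followed *Cd209a* probe 1 with r = 0.888 over the 16 arrays and *Cd209e* with r = 0.744, while *Cd209f* had r = 0.366. The *Cd209a* probes had r = 0.902 with each other. *Cd209e* was above background in tumor-free CDPs alone and *Cd209a* probe 2 on 7 of 16 arrays, so their r rest partly on values below background. *Cd209a* and *Cd209e* were also chosen for the same fall, so a high r between them was partly fixed in advance. These too are descriptions over arrays that share the groups.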

How the data were processed

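RNA from sorted MDPs and CDPs was labelled with Cy5 and hybridised to 16 single-colour arrays. The deposited scanner files, per the file headers, come from Agilent Feature Extraction 11.5.1.1 and give each spot's background-corrected intensity, a flag for signal well above background and mm9 positions. The deposited value table holds the authors' log2 values for 26793 probes, with column medians of 10.2 to 10.3 and slopes of 0.917 to 1.09 against log2 intensity of the same arrays, so the scale is log2 and genes are not centred. The scaling between arrays is not given in the sources used here, and the table was used as an alternative.

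Each array has 44397 spots, of which 1377 controls and 182 to 289 outlier spots were left out. Spots above background made up 58.8% to 71.5% and 0 probes were saturated. Spots of a probe were averaged after log2 transformation and subtraction of the array's 75th percentile. Groups came from the sample titles, with 4 arrays each (replicates 2 to 5). The series' text speaks of independent experiments but does not tie arrays to mice, so p-values measure the spread between these pools. Replicates of a group correlated at 0.943 to 0.981.

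Group means of 16 arrays were fitted with limma 3.58.1 (R 4.3.3) over 27433 probes, and the fit was tested on simulated data. A probe below background in the whole of one group was given as a bound: the bright group's mean against the higher, per array, of the dim probe's value and the lowest signal above background. Bounds were computed with the scanner's background correction only. The main fit held no term for slide (4 slides, with 4 arrays each), which entered as a block in an alternative fit only. Lists used 1 probe per gene, that with the highest mean. Genes were named by a rule: all members, list genes past the call rule or else a few examples, neighbours past it, and the 5 genes most correlated with *Cd209a* probe 1 and with *Cd209e*. *Spi1*, *Clec9a*, *Icam1* and *Itgam*, and values of list genes in comparisons where they were not called, were added after their values were seen. The members and lists were chosen with earlier results of these data known. Alternatives were normexp correction, quantile scaling, a percentile over probes above background on all arrays, the value table, other filters, slide or replicate number as a block, 2 groups at a time, no minimum fold, and leaving out each array.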

Additional observations from a re-analysis of the deposited data

Results flagged for a closer look

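The fitted tumor change of *Cd209e* in CDPs minus that in MDPs was −3.93 (SE 0.37). *Cd209e* was below background on all arrays of both MDP groups and of tumor-bearing CDPs, so the size of this value is set by the substitute signal, the change in MDPs could not be measured, and a difference between the populations is not shown. The value belongs to the contrast from which the gene was chosen, and no p-value is given. It was −1.08 with normexp correction, −3.61 with quantile scaling, −3.61 with the value table and −3.65 with slide as a block, settings added for this value after the data were seen.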

How the results depend on the processing

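*Cd209a* probe 1 was higher in CDPs than in MDPs under all 17 alternatives in which it was fitted, with differences of 3.94 to 5.44 in tumor-free and 2.66 to 5.92 in tumor-bearing mice, ranges that include the fits without 1 array (5.03 to 5.44 and 5.17 to 5.92). Several alternatives could not move this difference: no filter, no minimum fold, 2 groups at a time and the replicate block. In the tumor-free step the slide block could not move it either. *Cd209a* probe 1 could not be fitted when only probes above background on all 16 arrays were kept, and there *Cd209d* was the only member.

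Of member probes called in the tumor-free step (4), there were 5 with slide as a block and 3 with normexp or the replicate block. Of those in the tumor-bearing step (2), 1 was left with normexp, with no filter, with slide as a block, with the replicate block and with only 2 groups in the fit. Between CDP groups (4 called) there were 5 with slide as a block, which added *Cd209d*, 3 with quantile scaling, the value table or no filter, 2 with normexp, 2 with the replicate block and 1 with only 2 groups. Between MDP groups (1 called) there were 0 with normexp. Without 1 array the counts were 3 to 4, 1 to 3, 2 to 3 and 0 to 1 in the tumor-free step, the tumor-bearing step, CDPs and MDPs. The tumor-bearing step of *Cd209e* reversed to 0.19 with slide as a block, between groups that were both below background. The cause of these shifts was not tested.

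Same-numbered arrays of different groups did not deviate together (r from −0.70 to 0.48 over 24 pairs), so replicate numbers were not taken as pairs. Arrays of 1 slide from different groups correlated at −0.22 to 0.79 (median 0.26). With the replicate block, *Cd209a* probe 1 differed by 5.24 in the tumor-free step, a value that this block cannot change. The calls of all probes went from 1673 to 1431.

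Over all probes, slide as a block gave 2925 calls against 1673 in the tumor-free step, 1248 against 494 in CDPs and 44 against 18 in MDPs. Fits of 2 groups gave 800 against 1993 in the tumor-bearing step, 56 in CDPs and 5 in MDPs. Counts in MDPs were 7 with normexp, 11 with quantile scaling, 7 with the value table, and 10 with no filter, the filter on all arrays or the replicate block. Of the calls in MDPs 50% were higher, against 71.4% with normexp or the value table and 72.7% with quantile scaling. In CDPs 44.5% were higher, against 34.0% with the percentile over probes above background on all arrays. Quantile scaling moved the median difference of all probes from 0.19 to −0.003 in the tumor-bearing step and from −0.12 to 0.001 in MDPs, and normexp from 0.02 to −0.10 in the tumor-free step. Values below background limit *Cd209e*, and *Cd209a* in MDPs, to bounds, and leave *Cd209c* without a measured size.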
